A study of Mus musculus and Rattus norvegicus with 18 samples.

Results

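The genes described are 35 cytosolic chaperones and chaperone partners chosen by name: 6 Hsp70 proteins, 3 Hsp110 proteins, the Hsp70 exchange factor Bag1, 8 Hsp40 proteins, 2 Hsp90 proteins, 6 Hsp90 cochaperones, 2 heat shock factors and 7 subunits of the chaperonin TRiC. All 35 are among the 55487 gene IDs of the heart RNA table and the 17866 genes of the heart footprint table, and 34 are among the 32883 gene IDs of the H9C2 table, which has no row for Hspa1a. The mouse groups, all C57BL/6 and 4 weeks old, were hearts with a conditional Mettl1 knockout (cKO) and hearts of control mice (Ctrl), each with 2 RNA-seq and 2 Ribo-seq libraries. Mettl1 methylates guanosine at N7 in a set of tRNAs, and Ribo-seq reads the stretches of mRNA that ribosomes cover. The cell groups were 3 RNA-seq libraries of Mettl1-null H9C2 cells, made with a CRISPR-Cas9 frameshift in this rat line derived from embryonic heart tissue, and 3 libraries of H9C2 with normal Mettl1 (WT), all grown in high-glucose medium with serum. The null samples come from 1 edited line, and the labels name neither the cells in which the cKO acts nor the control genotype. A further 4 tRNA libraries of the 18 samples were not analysed here.

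Hsp70 proteins hold short unfolded stretches of new or damaged proteins in a cycle driven by ATP. Hsp40 proteins bring them their clients, and Hsp110 proteins and Bag1 make them let go of ADP so that the cycle can start again. Hsp90 takes over clients that are nearly folded, such as kinases and steroid receptors, with the help of cochaperones. TRiC is a closed barrel of related subunits that folds actin and tubulin. The heat shock factor Hsf1 switches on many of these genes when unfolded protein builds up, and heart muscle carries a large folding load from its sarcomeres.

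Library totals ranged from 15.05 to 16.84 M counts (M, 1000000) in heart RNA, from 25.17 to 39.68 M footprints in hearts, and the H9C2 libraries held 90.32 to 94.2 M counts. Levels are CPM, counts per 1000000 after scaling with TMM factors. Mettl1 stood at 2.49 and 2.52 CPM in cKO heart RNA, against 4.31 and 3.76 CPM in Ctrl, which did not pass the test (adjusted p = 0.0664). Its footprints were 2.22 and 2.22 CPM in cKO hearts, against 6.28 and 6.62 CPM in Ctrl hearts (adjusted p = 0.000101). In H9C2 it was at 4.28, 4.72 and 3.75 CPM in null samples, against 16.6, 15.6 and 16.2 CPM in WT samples (adjusted p = 1.1e-05). The summed level of 10 cardiomyocyte markers was 53260 to 53570 CPM in cKO heart RNA and 57960 to 58530 CPM in Ctrl heart RNA, and 6 of the 10 were lower in the test. The 7 erythroid markers present summed to 1594 to 2496 CPM in cKO heart RNA and 1457 to 1592 CPM in Ctrl heart RNA, with 3 higher. Endothelial markers summed to 2280 to 2361 CPM in cKO heart RNA and 2606 to 2624 CPM in Ctrl heart RNA, with 3 of 10 lower, and markers of smooth muscle and pericytes to 1399 to 1400 CPM in cKO and 1577 to 1593 CPM in Ctrl heart RNA, with 1 of 10 lower. Of 10 fibroblast and 10 macrophage markers 0 were called in heart RNA. Macrophage markers nonetheless summed to 800 to 877 CPM in cKO heart RNA and 755 to 785 CPM in Ctrl heart RNA, without overlap. Fibroblast markers summed to 4883 to 5186 CPM in cKO and 4843 to 5159 CPM in Ctrl heart RNA, with overlap. The part of these shifts in the results on chaperones was not tested. In bulk samples, fewer cells of a type and less RNA per cell cannot be told apart. In H9C2 the cardiomyocyte markers were near 0, with sums of 12.5 to 14.4 CPM in null samples and 25.4 to 27.7 CPM in WT samples and with Myl2, Myl3 and Ryr2 at 0, so the label of cardiomyocytes is not borne out by these markers. Markers of skeletal myoblasts summed to 598 to 627 CPM in null samples and 426 to 473 CPM in WT samples, with 5 of 6 tested markers higher and 1 lower. Fibroblast markers summed to 9611 to 10070 CPM in null samples and 11720 to 12690 CPM in WT samples, with 4 of 7 tested markers lower and 1 higher, and their part in the H9C2 results was not tested.

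Chaperone genes rose more often than they fell in cKO hearts and fell more often than they rose in null H9C2 cells. A gene was called where its p from edgeR's quasi-likelihood test, adjusted by Benjamini-Hochberg over all genes tested, was under 0.05, and every adjusted p below comes from that test unless another is named. In heart RNA 10 of 35 members were higher (28.6%) and 2 lower (5.71%), where 8.16% of all 14088 genes tested were higher and 6.26% lower. Their median log2 fold change was 0.11, against 0.00 over all genes. In heart footprints 9 of 34 tested members were higher (26.5%) and 2 lower (5.88%), beside 9.11% and 7.33% of 13514 genes, and the median was 0.16. Dnajb6 had too few footprints to be tested. In H9C2 3 of 34 members were higher (8.82%) and 16 lower (47.1%), beside 13.6% and 11.5% of 14801 genes, and the median was −0.14. In all, 23 members were called in at least 1 of the tables and 12 in none. In either direction, 14.4% of all genes were called in heart RNA, 16.4% in footprints and 25.1% in H9C2. The share of all genes called in at least 1 of them was not computed, so the 23 members have no reference share. The heart counts rest on 2 libraries a group and moved with the library left out: members higher in heart footprints numbered 3 without cKO 1, 5 without cKO 2, 5 without Ctrl 2 and 10 without Ctrl 1, and members higher in heart RNA numbered 6 without cKO 1. Members lower in H9C2 numbered 9 without WT 1 and 10 without null 2 or null 3.

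**Figure D1:**
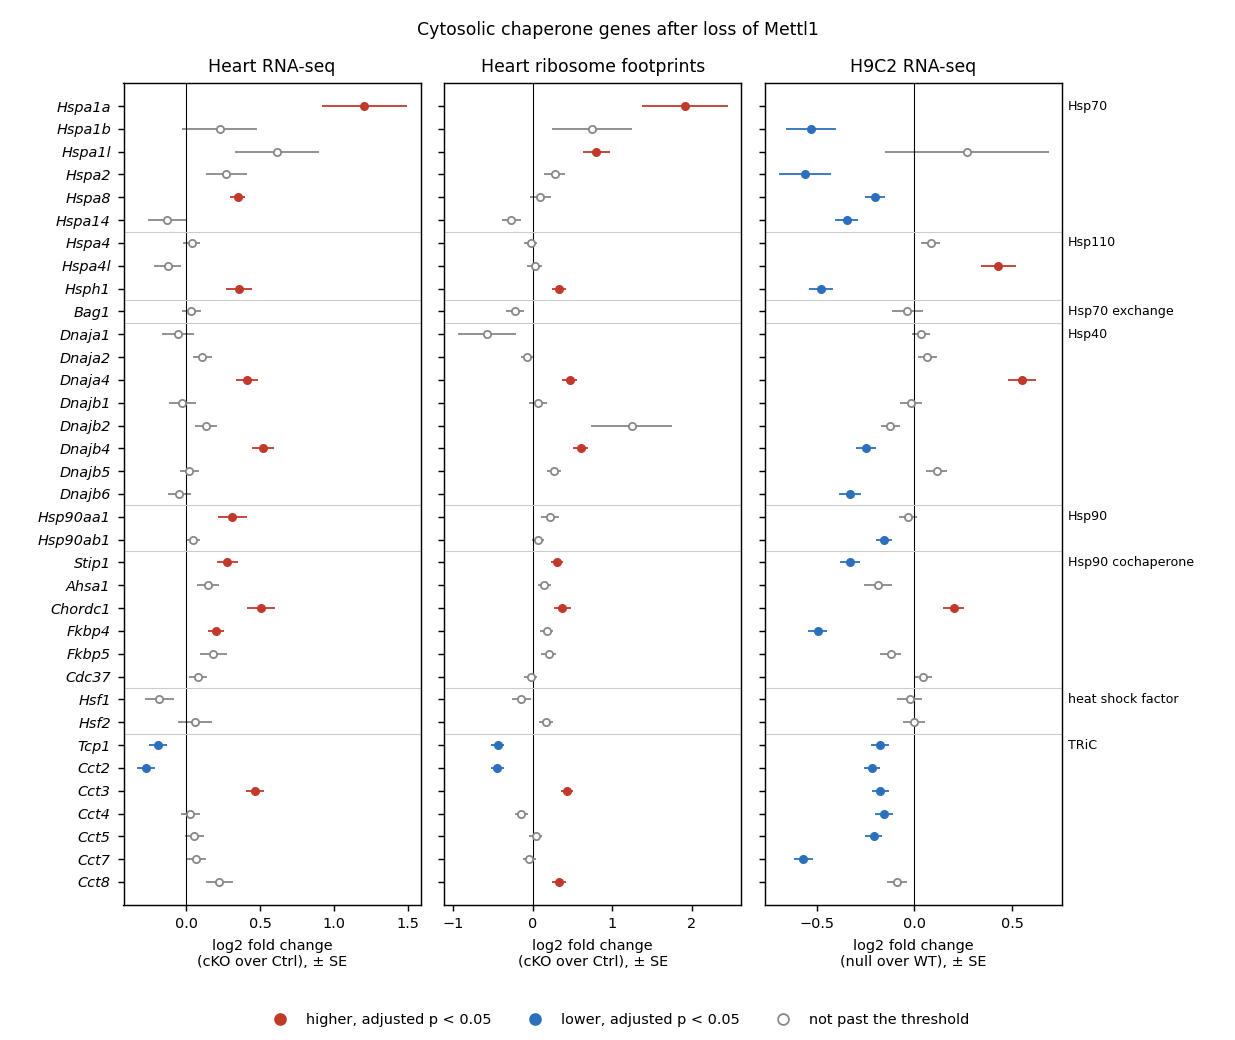
Log2 fold change with its SE for each member in heart RNA, heart footprints (cKO over Ctrl, n = 2 each) and H9C2 RNA (null over WT, n = 3 each), with genes grouped by role down the page, a horizontal scale of its own in each panel and filled points for called genes. Hspa1a lies farthest right in both heart panels, at 1.21 and 1.91, and 6 of 7 TRiC subunits lie left of 0 as called genes in H9C2.

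Of the Hsp70 genes of the heart, the stress-inducible Hspa1a was called higher in both layers, the constitutive Hspa8 in RNA and Hspa1l in footprints, and no difference between layers passed a test. Hspa1a (GRCm38 chromosome 17, 34969359 to 34972156) makes the Hsp70 that cells produce after heat or protein damage. It had 4.98 and 3.10 CPM in cKO heart RNA (86 and 48 reads), against 1.80 and 1.72 CPM in Ctrl heart RNA (28 and 27 reads), or 1.21 on the log2 scale (SE 0.29, adjusted p = 0.0107). Its footprints were 0.799 and 1.10 CPM in cKO hearts (32 and 38 footprints), against 0.333 and 0.182 CPM in Ctrl hearts (8 and 6), or 1.91 (SE 0.54, adjusted p = 0.0248). The cKO libraries lay above the Ctrl libraries in both layers, on low counts. The RNA call was lost without cKO 1 (0.81, adjusted p = 0.206), and the footprint call was lost without each library in turn (adjusted p 0.0505 to 0.188) and in DESeq2 (0.0742).

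Hspa1b, its neighbour on the same chromosome (34956429 to 34959238), encodes nearly the same protein. It had 2.83 and 3.94 CPM in cKO heart RNA and 2.96 and 2.80 CPM in Ctrl heart RNA, so the groups overlapped (0.23, SE 0.25, adjusted p = 0.626). How reads matching both copies were counted is not stated in the sources used here, so the split between them is uncertain. Their sum does not depend on that split as long as such reads were counted at all: it was 7.81 and 7.05 CPM in cKO heart RNA, against 4.76 and 4.52 CPM in Ctrl heart RNA, and 1.52 and 1.93 CPM in cKO footprints, against 0.624 and 0.789 CPM in Ctrl footprints. The summed level was higher in every cKO library and was given no test. The 250 bases before each start, shown because they show how alike the copies are, come from RefSeq (GRCm38.p6), with a GAANNTTC stretch in capitals (2 facing heat shock units).
Hspa1a, chr17:34972157-34972406, minus strand: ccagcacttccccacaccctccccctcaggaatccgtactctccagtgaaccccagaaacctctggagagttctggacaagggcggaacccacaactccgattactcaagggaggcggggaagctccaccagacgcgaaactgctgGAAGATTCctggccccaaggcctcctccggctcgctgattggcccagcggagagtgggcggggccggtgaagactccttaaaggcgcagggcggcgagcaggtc
Hspa1b, chr17:34959239-34959488, minus strand: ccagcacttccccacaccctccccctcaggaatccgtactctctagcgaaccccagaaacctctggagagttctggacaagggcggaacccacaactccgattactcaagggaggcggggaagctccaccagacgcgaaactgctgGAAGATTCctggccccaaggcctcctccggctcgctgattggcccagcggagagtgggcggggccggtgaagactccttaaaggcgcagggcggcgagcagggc
The stretches share 247 of 250 bases, with 3 mismatches and a longest identical run of 201 bases.

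Hspa8, the Hsp70 that all cells make at rest, had 1436 and 1425 CPM in cKO heart RNA, against 1162 and 1088 CPM in Ctrl heart RNA. The groups stood clearly apart (0.35, SE 0.05, adjusted p = 0.000193), and the call held under all 10 alternatives run for it. Its footprints were 12.5 and 11.9 CPM in cKO hearts, against 10.3 and 12.4 CPM in Ctrl hearts, where the groups overlapped (0.10, adjusted p = 0.704). Hspa1l, an Hsp70 known mainly from testis, starts 546 bases from the Hspa1a record. Its footprints were 8.76 and 7.39 CPM in cKO hearts, against 4.57 and 4.71 CPM in Ctrl hearts (0.80, SE 0.17, adjusted p = 0.00471), a call lost without cKO 1 (0.0696). Its RNA was 2.49 and 2.72 CPM in cKO hearts, against 1.67 and 1.72 CPM in Ctrl hearts, apart but not past the threshold (0.61, adjusted p = 0.181). Hspa2 had log2 fold changes of 0.27 in RNA and 0.28 in footprints, and Hspa14, which works at the ribosome, −0.13 and −0.27, none past the threshold.

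Among the genes that reset Hsp70, Hsph1 alone was called in the heart. Hsph1 encodes the stress-inducible Hsp110. It had 45.8 and 41.1 CPM in cKO heart RNA, against 32.4 and 35.6 CPM in Ctrl heart RNA (0.36, SE 0.09, adjusted p = 0.0133). Its footprints were 58.4 and 54.5 CPM in cKO hearts, against 45.8 and 43.9 CPM in Ctrl hearts (0.33, SE 0.09, adjusted p = 0.0187). The cKO libraries were higher in each layer. The RNA call was lost in DESeq2 (0.0648), without cKO 1 (0.171) and without Ctrl 1 (0.0639), and the footprint call without cKO 1 (0.259), cKO 2 (0.0560) or Ctrl 2 (0.0673). The related Hspa4 and Hspa4l lay between −0.13 and 0.04 in both layers, and Bag1, which opens the nucleotide pocket of Hsp70, at 0.04 in RNA and −0.22 in footprints.

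Of the 8 Hsp40 genes, Dnaja4 and Dnajb4 rose in heart RNA and footprints, and these 4 calls held under every alternative run for them. Dnaja4, a class A Hsp40, had 83.3 and 79.4 CPM in cKO heart RNA, against 58.1 and 64.5 CPM in Ctrl heart RNA (0.41, SE 0.07, adjusted p = 0.00137). Its footprints were 200.1 and 191 CPM in cKO hearts, against 156 and 127 CPM in Ctrl hearts (0.47, SE 0.09, adjusted p = 0.00296). Both cKO libraries exceeded both Ctrl libraries in each layer. Dnajb4, a class B Hsp40, had 90.8 and 89.1 CPM in cKO heart RNA, against 67.1 and 58.8 CPM in Ctrl heart RNA (0.52, SE 0.07, adjusted p = 0.000222). Its footprints were 415 and 385 CPM in cKO hearts, against 288 and 240 CPM in Ctrl hearts (0.60, SE 0.09, adjusted p = 0.000312). The libraries were again apart; Fubp1 overlaps the Dnajb4 record, and the strand setting of the counting is not stated in the sources. Dnajb1, the best known stress-inducible Hsp40, had 27.6 and 29.7 CPM in cKO heart RNA, against 27.7 and 30.5 CPM in Ctrl heart RNA, with overlapping groups (−0.03, adjusted p = 0.898). The other 5 lay between −0.06 and 0.13 in RNA with none called. In footprints Dnajb5 missed the threshold at 0.26 (adjusted p = 0.0504), and Dnaja1 and Dnajb2 rested on 44 to 68 and 7 to 32 footprints a library.

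**Figure D2:**
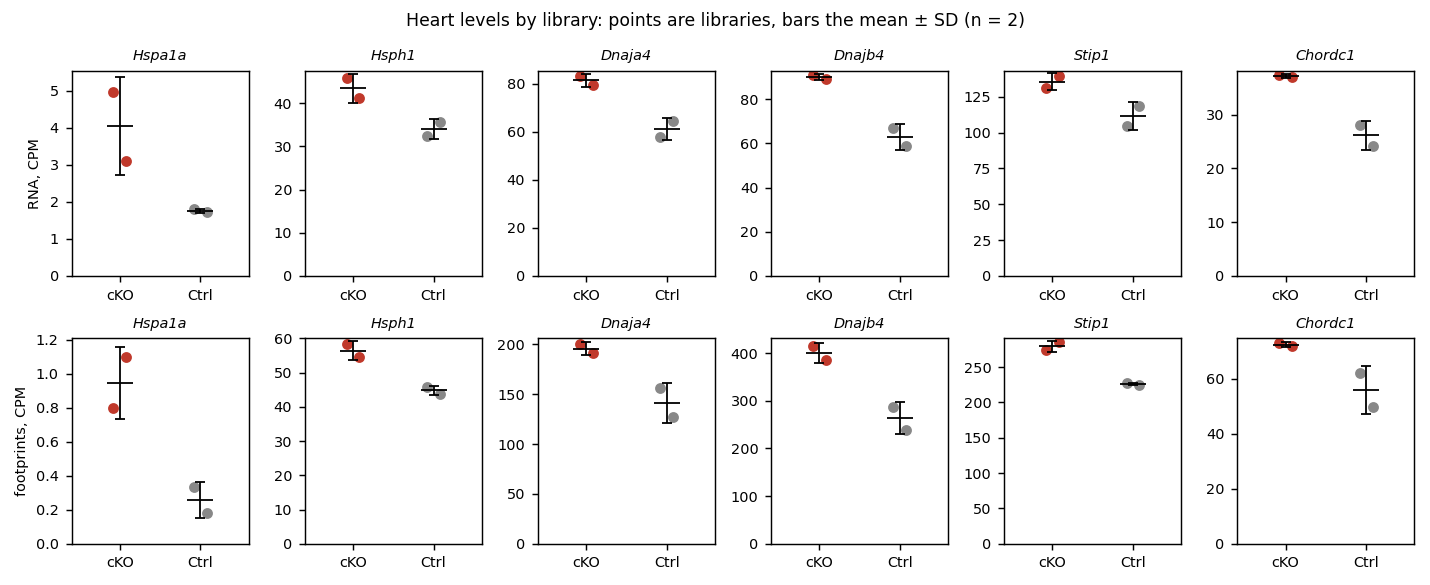
CPM per library of 6 members called higher in both heart layers, with RNA in the upper row, footprints in the lower row, cKO left of Ctrl, points for libraries and bars for the mean ± SD (n = 2). Both cKO points lie above both Ctrl points in all 12 panels, for Dnajb4 RNA at 90.8 and 89.1 CPM, against 67.1 and 58.8 CPM.

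In the Hsp90 group the stress-inducible Hsp90aa1 and 3 cochaperones rose in heart RNA. Hsp90aa1 had 46.6 and 50.9 CPM in cKO hearts, against 43.3 and 35.2 CPM in Ctrl hearts (0.31, SE 0.10, adjusted p = 0.0417). This call was lost in DESeq2 (0.153) and without cKO 1 (0.0674), cKO 2 (0.226) or Ctrl 2 (0.319), and in footprints Hsp90aa1 did not pass (0.22, adjusted p = 0.229). Hsp90ab1, the constitutive form, had 1201 and 1182 CPM in cKO heart RNA, against 1153 and 1153 CPM in Ctrl heart RNA (0.05, SE 0.05, adjusted p = 0.561). Chordc1 encodes a CHORD-domain protein that binds Hsp90. Its RNA was 37.4 and 36.9 CPM in cKO hearts, against 28.1 and 24.2 CPM in Ctrl hearts (0.51, SE 0.09, adjusted p = 0.00175), and this call held in all 10 alternatives. Its footprints were 73.0 and 71.7 CPM in cKO hearts, against 62.2 and 49.8 CPM in Ctrl hearts (0.37, SE 0.10, adjusted p = 0.0206), lost without cKO 1 (0.117), cKO 2 (0.0510) or Ctrl 2 (0.150). The cKO libraries of Chordc1 lay close together and above both Ctrl libraries.

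Stip1, the adaptor that hands clients from Hsp70 to Hsp90, had 131 and 140 CPM in cKO heart RNA, against 105 and 119 CPM in Ctrl heart RNA (0.28, SE 0.07, adjusted p = 0.0146). Its footprints were 274 and 285 CPM in cKO hearts, against 227 and 225 CPM in Ctrl hearts (0.31, SE 0.08, adjusted p = 0.0118). The groups did not overlap in either layer, but the RNA call was lost without cKO 2 (0.0953) or Ctrl 1 (0.159) and the footprint call without cKO 1 (0.0832) or cKO 2 (0.141). Fkbp4, an immunophilin of steroid receptor complexes, had 330 and 329 CPM in cKO heart RNA, against 285 and 288 CPM in Ctrl heart RNA (0.20, SE 0.05, adjusted p = 0.0180). That call was lost in DESeq2 (0.0685) and without cKO 1 (0.0760), cKO 2 (0.0549), Ctrl 1 (0.0967) or Ctrl 2 (0.0659), and the footprints of Fkbp4 did not pass (0.18, adjusted p = 0.146). Ahsa1, which speeds the ATPase of Hsp90, Fkbp5 and the kinase adaptor Cdc37 lay between −0.02 and 0.20 over both layers with no call. Fkbp5 RNA turned on 1 library, at 0.38 without Ctrl 1 (adjusted p = 0.00115) and 0.0075 without Ctrl 2, and its footprints passed without Ctrl 1 (0.32, 0.0305) and with library totals (0.0460).

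The heat shock factors themselves were not called in any table. Hsf1 had 24.8 and 25.1 CPM in cKO heart RNA, against 26.7 and 29.9 CPM in Ctrl heart RNA (−0.18, SE 0.10, adjusted p = 0.245), and −0.14 in footprints. Hsf2 lay at 0.06 in RNA and 0.17 in footprints. These are transcript and footprint levels and do not report the activity of the proteins. Heat shock factors bind inverted repeats of the unit NGAAN, so the RefSeq windows of 250 bases before to 50 bases after each start were searched for GAANNTTC, for TTCNNGAA and for a longer form with a further unit (GAANNTTC followed at once by NNGAA, or TTCNNGAA followed at once by NNTTC), which contains both shorter ones. The shorter motifs read the same on both strands, and the versions of the longer form are each other's reverse complement. Windows were found for 30 of the 35 members and not for Hspa8, Hsp90aa1, Hsp90ab1, Hsf1 and Cct4. These 30 have 42 windows, since some genes have more than 1 start. The longer form was in 0.603% of all 32851 windows and in 5 of the 42, those of Chordc1, Hsph1 and Dnajb6. GAANNTTC was in 7.86% of all windows and in 11 of the 42 (9 members), and TTCNNGAA in 8.52% and in 8 of the 42 (6 members). Windows of 1 gene can overlap, so they are not separate cases. The matches with 3 or more units, in capitals within 30 bases of RefSeq sequence (GRCm38.p6), are shown because Chordc1 and Hsph1 are among the members that rose in both heart layers, while Dnajb6 RNA was not called (−0.05, adjusted p = 0.756).
Chordc1, chr9:18292259-18292288, plus strand: accgGAACGTTCGGGAAAATTCCTGAAgca
Hsph1, chr5:149636280-149636309, minus strand: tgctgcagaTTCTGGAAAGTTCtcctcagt
Dnajb6, chr5:29735843-29735872, plus strand: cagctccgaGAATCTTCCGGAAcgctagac
The other members higher in both heart layers, Hspa1a, Dnaja4, Dnajb4, Stip1 and Cct3, had no longer form in their windows. In H9C2 Hsph1 (−0.48) and Dnajb6 (−0.33) were called lower and Chordc1 (0.20) higher. A match is a description of letters and was not tested as a binding site.

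TRiC subunits, which are built into 1 barrel, did not move together in the heart. Cct3 had 136 and 135 CPM in cKO heart RNA, against 98.0 and 98.4 CPM in Ctrl heart RNA (0.46, SE 0.06, adjusted p = 9.6e-05). Its footprints were 318 and 333 CPM in cKO hearts, against 248 and 234 CPM in Ctrl hearts (0.43, SE 0.08, adjusted p = 0.00125). Cct3 was thus higher in every cKO library of both assays, and both calls held under all alternatives. Cct2 went the other way, with 107 and 101 CPM in cKO heart RNA, against 125 and 126 CPM in Ctrl heart RNA (−0.27, SE 0.06, adjusted p = 0.00821, lost without cKO 2 at 0.0617). Its footprints were 140 and 132 CPM in cKO hearts, against 187 and 182 CPM in Ctrl hearts (−0.44, SE 0.08, adjusted p = 0.00122). Tcp1, the alpha subunit, had 124 and 122 CPM in cKO heart RNA, against 138 and 142 CPM in Ctrl heart RNA (−0.19, SE 0.06, adjusted p = 0.0477). The libraries of Cct2 and Tcp1 were lower in cKO without overlap. The RNA call of Tcp1 was lost with library totals (−0.11, 0.260), in DESeq2 (0.198) and without cKO 1 (0.137), cKO 2 (0.163), Ctrl 1 (0.111) or Ctrl 2 (0.201).

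Footprints of Tcp1 were 253 and 249 CPM in cKO hearts, against 358 and 324 CPM in Ctrl hearts (−0.44, SE 0.08, adjusted p = 0.00127), and this call and that of Cct2 footprints held under all 12 alternatives. Mrpl18 and Acat3 overlap the Tcp1 record, and Usp16 overlaps the Cct8 record. Cct8 rose in footprints, with 411 and 364 CPM in cKO hearts, against 328 and 289 CPM in Ctrl hearts (0.33, SE 0.09, adjusted p = 0.0172), a call lost without cKO 1 (0.281) or Ctrl 2 (0.105). In RNA Cct8 overlapped between groups (0.22, adjusted p = 0.133). It passed with library totals (0.0395), without cKO 2 (0.36, 0.0168) and without Ctrl 1 (0.34, 0.0112), but lay at 0.067 without cKO 1 and 0.12 without Ctrl 2. Cct4, Cct5 and Cct7 lay between −0.14 and 0.07 in both layers with no call. The ratio of Cct3 to Cct2, taken within a library and so free of scaling, was 1.27 and 1.33 in cKO heart RNA, against 0.781 and 0.784 in Ctrl heart RNA. In footprints it was 2.28 and 2.52 in cKO hearts, against 1.33 and 1.29 in Ctrl hearts. In H9C2 it was 0.585, 0.579 and 0.584 in null samples, against 0.570, 0.563 and 0.565 in WT samples, a far smaller distance.

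**Figure D3:**
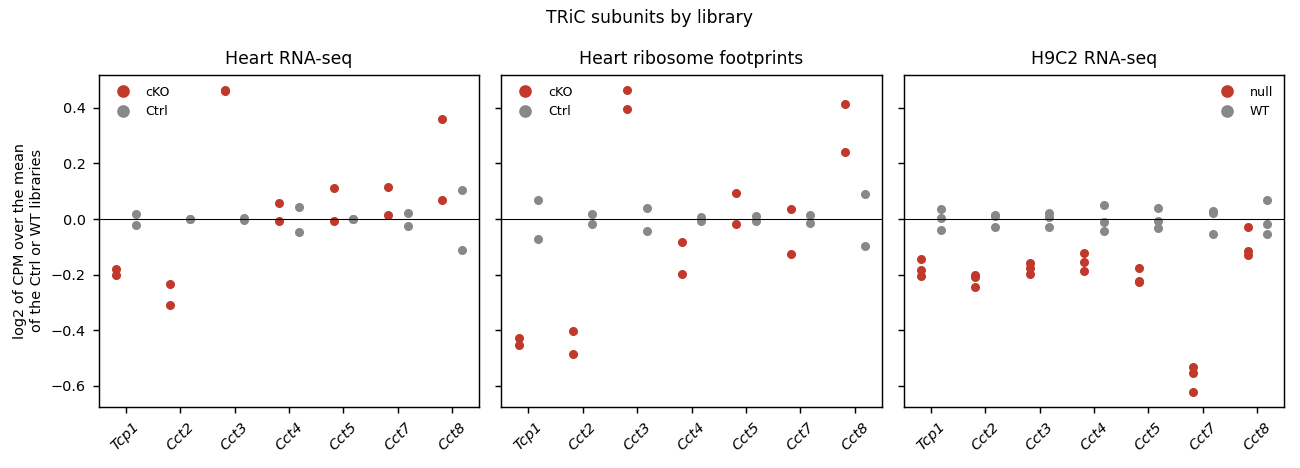
Log2 of CPM over the mean of the Ctrl or WT libraries for 7 TRiC subunits, 1 point per library, with cKO or null left of Ctrl or WT for each gene. Cct3 stands above 0 and Cct2 and Tcp1 stand below it in cKO hearts, while all 7 subunits lie below 0 in every null H9C2 sample, Cct7 lowest at a log2 fold change of −0.57.

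No member passed the test for a footprint change beyond its RNA change, and a miss of the threshold does not show that the layers changed alike. The change of translational efficiency, the footprint change beyond the RNA change, was tested as the genotype-by-assay interaction over the 8 heart libraries. None of 34 members was higher or lower (0 and 0), beside 0.0711% and 0.0553% of 12662 genes. DESeq2 also called 0 members. At an unadjusted threshold of 0.05 in edgeR there were 5 of 34 members, beside 1227 of 12662 genes. The 5 were Dnajb2 (1.08), Dnajb5 (0.23), Tcp1 (−0.27), Bag1 (−0.27) and Hspa8 (−0.27), with adjusted values in edgeR from 0.287 to 0.510. Dnajb2 rests on 7 to 32 footprints a library. The members called higher in heart RNA and in heart footprints share 7 genes, which are 7 of 10 and 7 of 9: Hspa1a, Hsph1, Dnaja4, Dnajb4, Stip1, Chordc1 and Cct3. Tcp1 and Cct2 were the 2 members called lower in each. How far calls in RNA and footprints overlap over all genes was not computed, so these overlaps have no reference.

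The members differed widely in how many footprints they drew for their RNA. Over 12662 genes the median ratio of footprint CPM to RNA CPM in Ctrl hearts was 0.800. Hspa8 had 1125 CPM in Ctrl RNA but 11.3 CPM in Ctrl footprints, a ratio of 0.0101, at percentile 0.505 of those genes. Dnaja1 had a ratio of 0.0574, Dnajb2 of 0.00491, Bag1 of 0.133, Hspa1a of 0.146 and Hspa1b of 0.156. Dnajb6 had 61.95 and 58.2 CPM in cKO heart RNA, against 65.0 and 59.1 CPM in Ctrl heart RNA, but 13 and 4 footprints in cKO hearts, against 0 and 9 in Ctrl hearts. At the other end the ratios were 4.24 for Cct8, 4.19 for Dnajb4 and 3.90 for Ahsa1, at percentiles 98.2, 98.2 and 97.7. Hspa8 footprints averaged 12.2 CPM in cKO hearts and 11.3 CPM in Ctrl hearts. How footprints matching several places were treated is not stated in the sources. The part of that treatment in the low ratios and in the ranking by density below was not tested. Per length, Hsp90ab1 had the densest footprints, 2976 CPM per 1000 codons in cKO hearts and 2836 in Ctrl hearts (means, n = 2). Fkbp4 followed with 1556 in cKO hearts and 1376 in Ctrl hearts, then Dnajb4 with 1187 and Dnaja2 with 1102 in cKO hearts, against 783 and 1162 in Ctrl hearts.

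**Figure D4:**
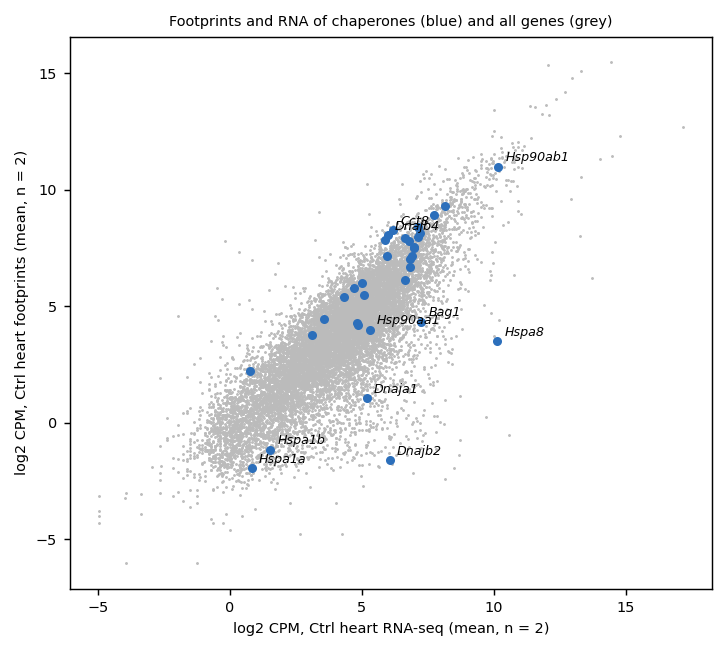
Log2 CPM of footprints (vertical) against log2 CPM of RNA (horizontal) in Ctrl hearts, each the mean of 2 libraries, for members in blue and all genes tested in both assays in grey. Hspa8 and Dnajb2 lie far below the cloud of genes with their RNA level, at footprint to RNA ratios of 0.0101 and 0.00491, while Dnajb4 and Cct8 lie at its upper edge.

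In null H9C2 cells 4 of 5 Hsp70 genes, 6 of 7 TRiC subunits and several partners were lower, and Dnaja4, Hspa4l and Chordc1 were higher. Hspa8 had 1417, 1469 and 1560 CPM in null samples, against 1681, 1764 and 1666 CPM in WT samples (−0.20, SE 0.05, adjusted p = 0.0201), lost without null 1 (0.0918), null 2 (0.0859) or WT 1 (0.0656). Hspa1b had 4.60, 4.44 and 3.50 CPM in null samples, against 5.94, 6.07 and 6.09 CPM in WT samples (−0.53, SE 0.13, adjusted p = 0.0182), lost without null 3 (0.0598) or WT 1 (0.0548). No null sample reached a WT sample for either gene. Hspa14 had 46.1, 50.1 and 48.7 CPM in null samples, against 60.3, 63.7 and 60.3 CPM in WT samples (−0.35, SE 0.06, adjusted p = 0.00275). Hspa2 had 3.83, 3.11 and 4.14 CPM in null samples, against 5.37, 5.68 and 5.30 CPM in WT samples (−0.56, SE 0.13, adjusted p = 0.0162), lost without null 2 (0.0511) or WT 1 (0.0508). All 3 null samples were lower for these genes, while Hspa1l overlapped between groups at under 1 CPM.

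Hsph1 had 291, 320 and 329 CPM in null samples, against 441, 415 and 454 CPM in WT samples (−0.48, SE 0.06, adjusted p = 0.000696). Hspa4l, its paralogue, went the other way with 28.2, 23.6 and 23.4 CPM in null samples, against 17.6, 18.8 and 19.5 CPM in WT samples (0.43, SE 0.09, adjusted p = 0.00955, lost without WT 1 at 0.0509). The groups were apart for both Hsp110 genes, in opposite directions. Dnaja4 had 33.5, 31.8 and 34.2 CPM in null samples, against 23.8, 21.0 and 23.2 CPM in WT samples (0.55, SE 0.07, adjusted p = 0.000800). Dnajb6, an Hsp40 that holds back aggregates, had 70.0, 69.7 and 75.7 CPM in null samples, against 93.7, 87.3 and 89.9 CPM in WT samples (−0.33, SE 0.06, adjusted p = 0.00318). The Hsp40 genes were thus split, and Dnajb4 was lower, with 65.3, 69.0 and 67.4 CPM in null samples, against 80.6, 81.3 and 77.5 CPM in WT samples (−0.25, SE 0.05, adjusted p = 0.00772). Dnajb1 overlapped between groups (−0.02, adjusted p = 0.849).

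Hsp90ab1 had 2075, 2116 and 2146 CPM in null samples, against 2340, 2401 and 2313 CPM in WT samples (−0.16, SE 0.04, adjusted p = 0.0240). This call was lost with library totals (0.0549) and without null 1 (0.103), null 2 (0.0919), null 3 (0.0831) or WT 1 (0.0865). Hsp90aa1 overlapped between groups (−0.03, adjusted p = 0.641). Fkbp4 had 225, 232 and 241 CPM in null samples, against 321, 339 and 322 CPM in WT samples (−0.49, SE 0.05, adjusted p = 0.000195). Stip1 had 523, 527 and 536 CPM in null samples, against 638, 707 and 651 CPM in WT samples (−0.33, SE 0.05, adjusted p = 0.00201). The null samples of both cochaperones lay well below the WT samples. Chordc1 was higher, with 88.0, 92.5 and 90.5 CPM in null samples, against 79.6, 74.1 and 82.0 CPM in WT samples (0.20, SE 0.06, adjusted p = 0.0286), lost without null 1 (0.0621), null 2 (0.112), null 3 (0.105) or WT 1 (0.0833). Ahsa1 (−0.19), Fkbp5 (−0.12) and Cdc37 (0.05) were not called, nor were Bag1, Hsf1 and Hsf2 (−0.04 to 0.00).

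Cct7 had the largest fall of a TRiC subunit in H9C2, with 278, 296 and 292 CPM in null samples, against 437, 434 and 413 CPM in WT samples (−0.57, SE 0.05, adjusted p = 9.2e-05). Its ratio to Cct2 within a library was 0.607, 0.629 and 0.618 in null samples, against 0.799, 0.792 and 0.775 in WT samples, so Cct7 was lower relative to Cct2. Pradc1 overlaps Cct7 in the mouse annotation. Cct2 had 458, 470 and 472 CPM in null samples, against 547, 549 and 533 CPM in WT samples (−0.22, SE 0.04, adjusted p = 0.00656). Cct5 had 321, 331 and 320 CPM in null samples, against 373, 385 and 366 CPM in WT samples (−0.21, SE 0.04, adjusted p = 0.0102, lost without null 3 at 0.0615). No null sample of these subunits reached a WT sample. Cct3 had 268, 272 and 276 CPM in null samples, against 312, 309 and 301 CPM in WT samples (−0.18, adjusted p = 0.0184, lost without null 1, 2 or 3 or WT 1 at 0.0701 to 0.0853). Tcp1 had 285, 289 and 297 CPM in null samples, against 337, 319 and 329 CPM in WT samples (−0.18, adjusted p = 0.0226), and Cct4 had 358, 374 and 366 CPM in null samples, against 422, 404 and 396 CPM in WT samples (−0.15, adjusted p = 0.0427). Both were lost with library totals (0.0659 for Tcp1, 0.108 for Cct4) and without null 1, 2 or 3 or WT 1 (0.0669 to 0.103 for Tcp1, 0.0942 to 0.168 for Cct4). Cct8 was not called (−0.09, adjusted p = 0.254).

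Members called in both heart RNA and H9C2 went partly in the same direction and partly in opposite directions. Of the 10 members higher in heart RNA and the 3 higher in H9C2, Dnaja4 and Chordc1 were in both, and both genes were also higher in heart footprints. Of the 2 members lower in heart RNA and the 16 lower in H9C2, Tcp1 and Cct2 were in both. The share of all genes called in the same direction in heart RNA and H9C2 was not computed. Hspa8, Hsph1, Dnajb4, Stip1, Fkbp4 and Cct3, which are 6 of the 10 higher in heart RNA and 6 of the 16 lower in H9C2, were called in opposite directions. They are 6 of the 34 members tested in both tables (17.6%), and 0 members were called the other way round. Among all 10369 gene symbols tested in both tables, 1.09% were called higher in heart RNA and lower in H9C2, and 0.993% the other way round. Heart and cells differ in species, cell types, the way Mettl1 was lost and the tables, and the difference between their changes was not tested.

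**Figure D5:**
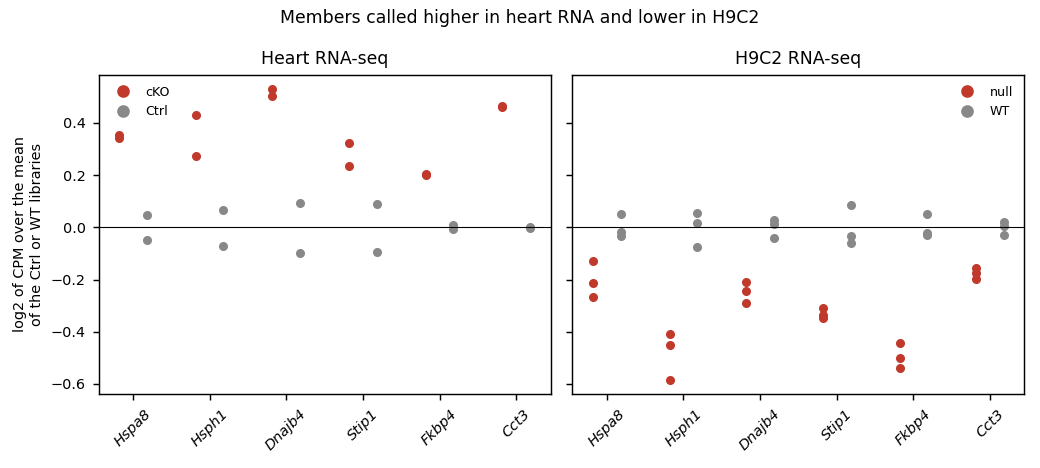
Log2 of CPM over the mean of the Ctrl or WT libraries for the 6 members called higher in heart RNA and lower in H9C2, 1 point per library, with cKO or null left of Ctrl or WT. For each gene both cKO points lie above the Ctrl points and all 3 null points lie below the WT points, for Fkbp4 at log2 fold changes of 0.20 in the heart and −0.49 in H9C2.

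Related genes from lists of partners are to be read against the same shares of all genes, 8.16% higher and 6.26% lower in heart RNA, 9.11% and 7.33% in footprints and 13.6% and 11.5% in H9C2, with medians over all genes of 0.00 in each. Of 14 further genes of the heat shock family or linked to it, 8 were higher and 1 lower in heart RNA (median 0.37), 7 and 0 in heart footprints (0.41), and 3 and 2 of 13 in H9C2 (0.06). The smallest adjusted p values in heart RNA belonged to the small heat shock proteins Hspb1, Hspb8 and Hspb7, which hold unfolded proteins without using ATP. Hspb1 averaged 352 ± 3.01 CPM in cKO heart RNA and 125 ± 8.94 CPM in Ctrl heart RNA (SD, n = 2 each; adjusted p = 6.74e-10). Hspb8 averaged 879 ± 2.80 CPM in cKO heart RNA and 430.2 ± 4.98 CPM in Ctrl heart RNA (1.03). Hspb7 averaged 2903 ± 25.7 CPM in cKO heart RNA and 1939 ± 104 CPM in Ctrl heart RNA (SD, n = 2 each; 0.58), and 158 ± 2.29 CPM in null H9C2 and 65.8 ± 3.05 CPM in WT H9C2 (SD, n = 3 each; 1.27). Of Hsp70 cochaperones 4 of 19 were higher and 2 lower in heart RNA (median 0.03), 3 and 1 of 20 in footprints (−0.03) and 1 and 3 of 19 in H9C2 (−0.12). Bag3, which links Hsp70 to the small heat shock proteins, was higher in all 3 tables, with log2 fold changes of 0.30 (heart RNA, adjusted p = 0.00237), 0.48 (footprints, 0.000466) and 0.30 (H9C2, 0.00274). Other genes of this list went down. Hspa12a was lower in heart RNA (−0.44, adjusted p = 0.00325) and footprints (−0.63, 0.000769), and Dnajc2 in H9C2 (−0.56, 0.000166). Of Hsp90 cochaperones 2 of 15 were higher and 1 lower in heart RNA (median 0.02), 2 and 2 of 14 in footprints (−0.02) and 1 and 3 of 14 in H9C2 (0.01), close to the shares over all genes in heart RNA. Of prefoldin subunits and other TRiC helpers 2 of 15 were higher and 0 lower in heart RNA (median 0.12), 5 and 0 of 16 in footprints (0.15) and 2 and 1 of 16 in H9C2 (−0.14). Pfdn6, a prefoldin subunit that hands clients to TRiC, was at 0.51 in heart RNA and 0.58 in footprints. Cct6a, a further TRiC subunit, was lower in H9C2 at −0.25 (adjusted p = 0.00475).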

How the data were processed

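Heart RNA-seq and Ribo-seq (cKO and Ctrl, 2 libraries each) and H9C2 RNA-seq (null and WT, 3 each) were analysed, with groups from the sample labels. The authors deposited read counts per gene (RNA-seq) and footprint counts per open reading frame (Ribo-seq), whole numbers with no normalization, a unit read from the values. The columns of the H9C2 table are named after gtf files, so its counts may have been estimated from StringTie coverage and not counted read by read, which would make its p-values approximate. Per the submitters' processing notes the builds were GRCm38 and Rnor_6.0 and the tools Bowtie, Bowtie2, STAR, HISAT2, StringTie, featureCounts, cutadapt and DESeq2; their versions, their use in each table and any strand setting are not given in the sources used here. Mouse IDs were matched to symbols (55141 of 55487), rat symbols came from the table, and the frame with most footprints was kept per gene (98.914% of footprints; for 1 member it is not the longest). No column of per-sample values in these tables was left unused.

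Each table was fitted over all its genes with edgeR 4.0.16 (R 4.3.3; quasi-likelihood test, TMM factors, filterByExpr, Benjamini-Hochberg adjustment, threshold 0.05), and translational efficiency as the genotype-by-assay interaction. The SE is the absolute log2 fold change divided by the square root of F. Fits were tested on simulated counts. Alternatives were relative-log-expression factors, library totals, DESeq2 1.42.0, at least 1 count as sole filter, a minimum of 50 counts in each library of 1 group, the replicate number as a block, each replicate left out and, for footprints, summed frames or the longest frame. Members and lists were chosen with earlier results of these data known. Values in every library are given for members past the threshold, and for lists up to 3 genes with the smallest adjusted p per table; some results are not reported here. Whether replicates were different animals or cultures is not in the labels, so the p-values cover the spread among these libraries alone, possibly a technical one. Positions and promoter sequences are RefSeq records of GRCm38.p6.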

Additional observations from a re-analysis of the deposited data

Results flagged for a closer look

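For 6 members the change in cKO hearts and the change in null H9C2 cells had opposite signs, with every library on its own side. Over all 10369 gene symbols tested in both tables, 113 (1.09%) were called higher in heart RNA and lower in H9C2, and the libraries stood apart for all 113, so separation adds nothing to the calls. The log2 fold changes were 0.347 in heart RNA and −0.201 in H9C2 for Hspa8, and 0.356 and −0.479 for Hsph1. They were 0.517 in heart RNA and −0.248 in H9C2 for Dnajb4, and 0.279 and −0.331 for Stip1. They were 0.202 in heart RNA and −0.494 in H9C2 for Fkbp4, and 0.464 and −0.176 for Cct3. The difference between heart and H9C2 was not tested, since species, cell types and tables differ.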

How the results depend on the processing

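Of 42 calls of members, 19 held under every alternative run for them, and no called value changed sign in any. Members lower in heart RNA numbered 1 with library totals and 1 in DESeq2, against 2. Over all genes of heart RNA, 1769 were higher and 506 lower with library totals and 623 and 457 in DESeq2, against 1150 and 882. Library totals moved the median of all genes by 0.08 in heart RNA, 0.07 in footprints and 0.04 in H9C2 and left 1639 higher and 657 lower in footprints, against 1231 and 990. For translational efficiency DESeq2 gave 31 genes lower, against 7. The cause was not tested.

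Whether the replicate numbers pair the samples was not settled. Deviations of same-numbered cKO and Ctrl libraries correlated at 0.035 in heart RNA and 0.0145 in footprints. With 2 libraries a group the differently numbered ones give the mirror value (−0.035 and −0.0145), so the heart values cannot decide it. Same-numbered null and WT samples of H9C2 correlated at −0.0221, 0.0996 and −0.129, and not every sample correlated best with its own number. Pairing of heart RNA with footprint libraries of the same number was not tested. With the replicate block, members higher and lower numbered 12 and 2 in heart RNA, 10 and 2 in footprints, 2 and 12 in H9C2 (without Hsp90ab1, Chordc1, Cct3, Tcp1 and Cct4) and 0 and 0 for efficiency, and all genes for efficiency 48 and 86, against 9 and 7.

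Without 1 replicate, members higher numbered 6 to 9 and lower 0 to 1 in heart RNA, 3 to 10 and 2 to 2 in footprints and 1 to 3 and 9 to 17 in H9C2. All genes higher and lower numbered 634 to 1069 and 521 to 933 in heart RNA, 667 to 1010 and 481 to 930 in footprints, 1348 to 2345 and 1006 to 2110 in H9C2, and 2 to 4 and 0 to 7 for efficiency.

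Among the values checked, signs changed only for values that were not called, and all values after a change of sign were at most 0.17 in size. For efficiency only the members called in heart RNA or footprints were checked. Dnaja1 footprints (−0.57) and Hspa1b heart RNA (0.23) changed sign when 1 library was left out. With library totals the values that changed sign were Dnajb1 (0.0552), Dnaja1 (0.0248) and Dnajb6 (0.0347) in heart RNA, Cdc37 (0.0455), Hspa4 (0.0442) and Cct7 (0.0274) in footprints and Hsf2 (0.0359), Bag1 (0.0032), Hsf1 (0.0137), Dnajb1 (0.0205) and Hsp90aa1 (0.0036) in H9C2, and with the replicate block Hsf2 in H9C2 (1.8e-04). Without 1 replicate the heart RNA ranges were Dnajb1 −0.090 to 0.042, Cct4 −0.022 to 0.074, Hsf2 −0.055 to 0.18, Hspa4 −2.6e-04 to 0.072, Cct5 −0.0063 to 0.11, Dnaja1 −0.20 to 0.10, Bag1 −0.038 to 0.10, Dnajb6 −0.12 to 0.027, Dnajb5 −0.033 to 0.070 and Hspa1b −0.025 to 0.45. The footprint ranges were Hspa8 −0.021 to 0.24, Cdc37 −0.10 to 0.041, Hspa4 −0.094 to 0.042, Cct5 −0.027 to 0.090, Hspa4l −0.10 to 0.16, Dnaja1 −1.05 to 0.037 and Cct7 −0.13 to 0.035. In H9C2 they were Hsf2 −0.052 to 0.029, Bag1 −0.11 to 0.043, Hsf1 −0.066 to 0.043 and Dnajb1 −0.067 to 0.022. For efficiency they were Cct3 −0.085 to 0.0044, Hspa1l −0.0053 to 0.37, Hsp90aa1 −0.28 to 0.042, Stip1 −0.084 to 0.10, Hsph1 −0.13 to 0.054, Fkbp4 −0.099 to 0.022 and Dnaja4 −0.17 to 0.26.

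Some uncalled values passed. With library totals these were Cct8 in heart RNA and Fkbp5, Fkbp4 and Dnajb5 in footprints. Dnajb5 footprints also passed with either other filter and with the longest frame. Without 1 replicate Cct8 and Fkbp5 in heart RNA, Fkbp5 and Dnajb5 in footprints and Ahsa1 in H9C2 passed.

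Low counts limit Hspa1a, Hspa1b, Dnajb2 and Dnajb6 in footprints.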

Other observations

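Genes outside the chaperones gave values that stand beside the results. Of 15 immediate early genes, which respond within minutes to handling or stress, 3 were lower and 0 higher in heart RNA, led by Nr4a2 (−1.29), Fosl2 (−0.61) and Fosb (−1.48), where 6.26% of all genes tested were lower and 8.16% higher. Their summed level was 595 to 748 CPM in cKO heart RNA and 698 to 840 CPM in Ctrl heart RNA, so the groups overlapped. In heart footprints the sums were apart, at 505.6 to 614.5 CPM in cKO and 666.5 to 698.8 CPM in Ctrl. Of 14 tested there, 3 were lower and 0 higher, beside 7.33% and 9.11% of all genes. In H9C2 3 were higher and 4 lower, beside 13.6% and 11.5% of all genes, with Dusp1 at 0.94 and Egr1 at −0.78.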
